A study of Mus musculus with 4 samples.

Results

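The genes described here belong by name to families of enzymes that place methyl and acetyl groups on histones or take them off. They include 3 partner subunits that such enzymes need (Eed, Suz12 and Msl1). A few enzymes that the name patterns take in act mainly on other proteins, such as Sirt5. They were chosen by name from a table of positions listed for Tet2 knockout (KO) leukemia cells after bisulfite sequencing of poly(A) RNA. The name patterns cover the Kdm, Kmt, Setd, Hdac, Sirt, Kat, Prmt, Ezh, Ehmt and Suv families, together with Crebbp, Ep300, Dot1l, Nsd1, Whsc1, Msl1, Eed and Suz12. They picked 63 of the 7822 gene labels in the table (0.805%) and 6476 of its 506952 positions (1.28%), and 0 of these positions carried a further gene label. Sorted by name, the genes fell into 40 writers with 4457 positions and 23 erasers with 2019 positions. Whether each product acts on histones was not checked.

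The cells were cultured mouse acute myeloid leukemia cells carrying NRAS and AE9a, a shortened AML1-ETO fusion. The labels give 2 Tet2 KO libraries and 2 wild-type (WT) libraries, all bisulfite-converted and grown with SCF, IL-3, IL-6, G418 and puromycin. Whether the libraries of a genotype came from different cultures or from 1 clone, and how Tet2 was removed, the labels leave unsaid. Tet2 oxidises methylated cytosine. Bisulfite deaminates plain cytosine but spares 5-methylcytosine, so at a cytosine the methylation level is the fraction of reads used that still show cytosine. Neither WT nor single libraries have a column of their own in the table: each position has 1 level for the KO cells, and the number of KO replicates in which it was called. By its file name it holds positions unique to the KO. No difference between KO and WT was therefore tested, and the values below describe the positions as listed. The lowest level in the table is 0.2, the lowest coverage is 10 reads, and the median coverage is 18 reads.

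Histone methyltransferases add methyl groups to lysines or arginines of histone tails, and demethylases of the Kdm family remove them from lysines. Acetyltransferases such as Ep300 and Kat6a loosen chromatin by acetylating lysines, and deacetylases of the Hdac and Sirt families reverse this. Several of these genes are tied to myeloid leukemia: Kmt2a, Crebbp and Kat6a take part in fusion genes, Dot1l is a dependency of leukemias with a Kmt2a fusion, and AML1-ETO recruits deacetylases through corepressors.

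Letters of the reference could be read at 33 of the member positions, those that fall in a RefSeq window around a transcription start (GRCm38.p6, the assembly also called mm10). They are shown because they tell which base the listed positions stand on. In each line below the listed positions are in capitals and the sequence runs along the plus strand, on which all 3 genes are transcribed. The letters of Kdm5a and Kmt5b come from the start windows of the neighbouring genes Ccdc77 and Gm16066.
Kdm5a chr6:120364364-120364381: cggaCtgatttaGCagca
Kdm5a chr6:120364387-120364410: acttCcGGgagcgtcCtGCCcctg
Kdm5a chr6:120364434-120364447: aataACAAaCgagc
Kmt5b chr19:3804395-3804412: gaaaCgaAatgAcAaaat
Kmt5a chr5:124445411-124445431: gcgcagggctGcgctgagcCg
Kmt5a chr5:124445438-124445458: gccgtcgcgcGccctcgcgcc
Kmt5a chr5:124445482-124445502: ccgcccctgcCcgcgccgtcc
Kmt5a chr5:124445504-124445524: cggcctcgctCcgggccccgg

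Of these 33 member positions, 17 stand on C, 9 on G, 7 on A and 0 on T. The demethylase gene Kdm5a contributed 23 of them, 12 on C with levels from 0.2 to 1, 7 on G with levels from 0.375 to 0.938 and 4 on A with levels from 0.214 to 0.923. In Kmt5a, the gene of the enzyme that monomethylates histone H4, the printed positions on G were 124445421 and 124445448. They were listed with a level of 1, from 10 of 10 and 12 of 12 reads used (Wilson 95% intervals 0.722 to 1 and 0.758 to 1). The 4 Kmt5a positions on C had levels of 0.8 at 124445430, 0.6 at 124445459 and 1 at 124445492 and 124445514, each with 10 to 12 reads used. Kmt5b, which encodes a dimethylating and trimethylating enzyme of the same histone, had levels of 0.294 to 0.5 at 1 position on C and 3 on A.

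The same holds over all windows of the table. Of 5942 plus-strand positions that fall in a window, 51.9% stand on C (exact 95% interval 50.6 to 53.2), 30% on G, 18.1% on A and 0 on T, which by the limit of 3 counts allows a share of up to 0.0505%. The letters of these windows are 30.4% C, 32.2% G, 18.3% A and 19.1% T. Their median levels were 0.7 on C, 0.667 on G and 0.6 on A. For plus-strand positions called in both KO replicates the share on C was 68.6% of 847 (65.3 to 71.7). Minus-strand positions stood on C in 130 of 144 cases (90.3%, 84.2 to 94.6). A level at a reference G or A cannot be read as methylation of a cytosine in that reference, and for the remaining 6443 member positions the letter was not read here. Below, reads that a site kept, or that were unconverted, are counts as deposited, whatever the reference letter. Each site printed with such reads and an interval was called in only 1 KO replicate. The site of a gene with the most reads used is likewise taken among sites called in 1 KO replicate.

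Whether a histone enzyme gene was in the table, and with how many positions, went with the strand it is transcribed from. Of 82 annotated protein-coding genes that fit the names, 63 had a listed position (76.8%), against 34.2% of 21900 protein-coding genes. On the plus strand 36 of 38 had one, against 56.4% of plus-strand genes in general, and the same 36 had 5 or more, against 54.6%. On the minus strand 27 of 41 had one, against 22% of minus-strand genes, and 4 had 5 or more, against 1.49%. The general shares rest on 9733 plus-strand and 9149 minus-strand genes, and 3 members of unknown strand were left out. Genes of unknown strand had no listed position, so all these shares by strand are upper limits. A gene without reads cannot be listed; the part of expression in these shares was not tested. Plus-strand members held 6400 positions, with 41 to 444 per gene and a median of 138.5. Minus-strand members held 76, with 1 to 10 per gene. These ranges of the members do not overlap. Over all protein-coding genes with a listed position the ranges do, at 1 to 560 per plus-strand gene (median 71) and 1 to 228 per minus-strand gene (median 1). Plus-strand positions made up 98.8% of the member positions (exact 95% interval 98.5 to 99.1), against 99.1% over all protein-coding genes.

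**Figure D1:**
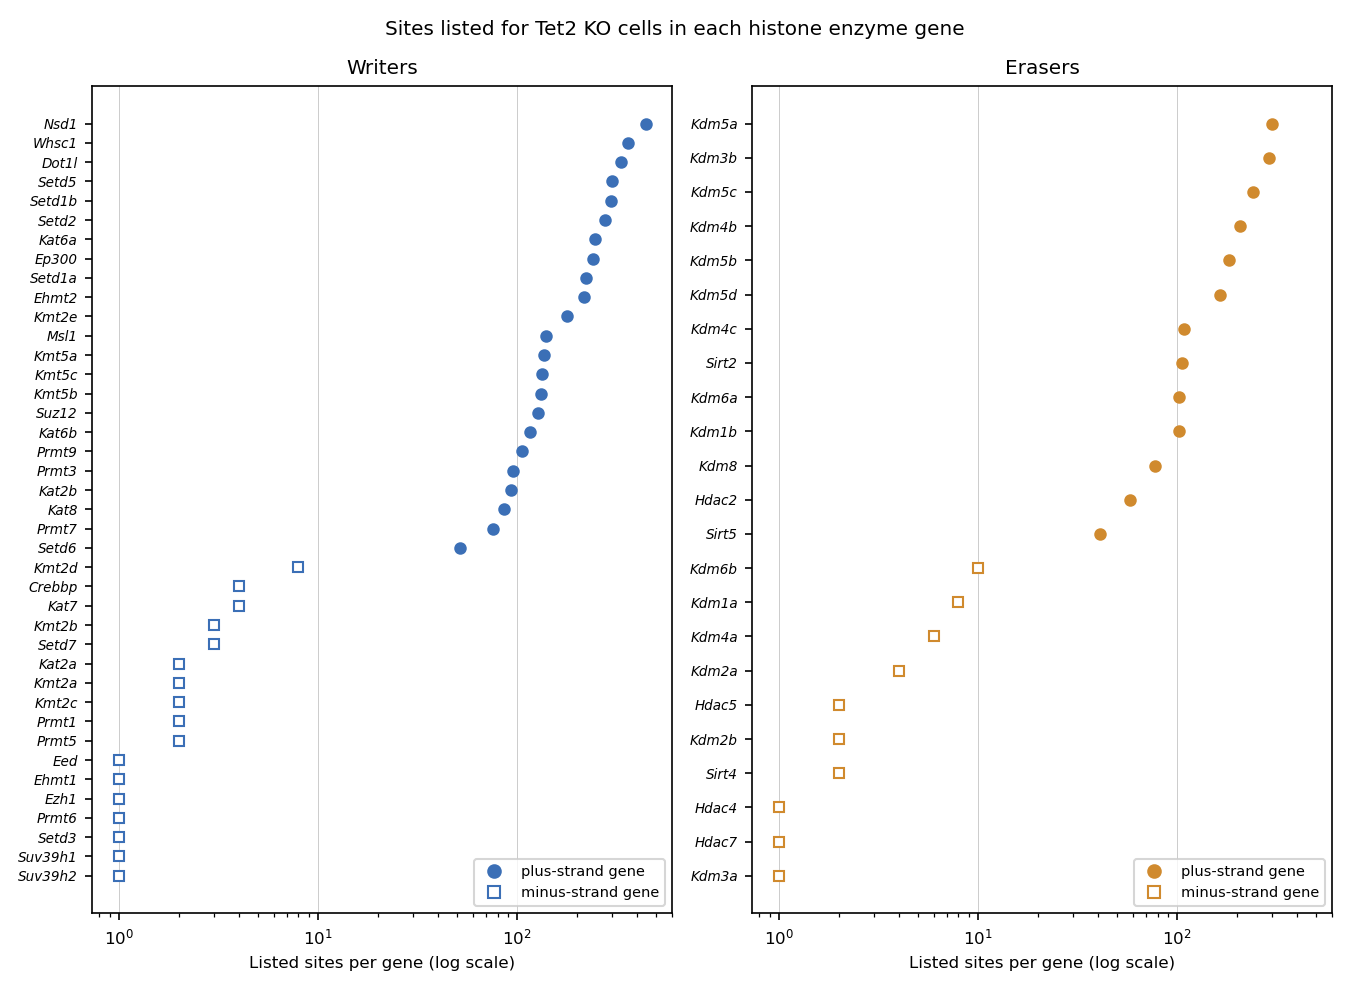
Listed sites per gene on a log axis, for 40 writers (left) and 23 erasers (right), with filled circles for plus-strand genes and open squares for minus-strand genes. Plus-strand genes lie between 41 and 444 sites and minus-strand genes between 1 and 10.

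Among the writers, lysine methyltransferase genes carried the most sites. Nsd1, which encodes a histone H3 methyltransferase active on gene bodies, led with 444 sites between 55212553 and 55318123 on chromosome 13, where the median level was 0.5 and the middle of the distribution ran from 0.357 to 0.7 (quartiles). Its relative Whsc1, known in RefSeq by a newer symbol, had 360 sites, and its median level was 0.472. Setd2, which trimethylates the same residue during elongation, had 278 with a median of 0.5. Nsd1 had 66 sites called in both KO replicates and Whsc1 had 63. The Nsd1 site with the most reads used, at 55247991, kept 38 unconverted reads of 63 (level 0.603, Wilson interval 0.480 to 0.715). The most covered Whsc1 site in both replicates, at 33893426 on chromosome 5, had an authors' mean level of 0.391, with a spread of 0.04 in the authors' deposited table.

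Dot1l, the methyltransferase of a lysine on the globular surface of histone H3, had 332 sites on chromosome 10 at a median level of 0.571. Its site at 80785559 kept 43 of 67 reads (0.642, interval 0.522 to 0.746), and its best covered site in both replicates, at 80783491, had an authors' mean level of 0.463 with a deposited spread of 0.026. Setd1a and Setd1b, the catalytic subunits of the COMPASS complexes that methylate promoters, had 223 and 297 sites. The median level was 0.5 in Setd1a and 0.6 in Setd1b, among the highest gene medians, and the quartiles of Setd1b were 0.4 and 0.8. Setd5 had 302 sites with a median of 0.471, and its site at 113106093 on chromosome 6 kept 22 of 23 reads (0.957, interval 0.790 to 0.992). Kmt2e, a relative of Kmt2a, had 178 sites with a median of 0.467.

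Ehmt2, which encodes the euchromatic histone H3 dimethyltransferase G9a, had 218 sites within a span of 15.6 kb, or 14 per kb. One of them, at 34905415 on chromosome 17, had the highest coverage of any writer site called in both replicates, 138 reads, with an authors' mean level of 0.47 and a deposited spread of 0.047. The methyltransferase genes of histone H4 had 137 (Kmt5a), 133 (Kmt5b) and 134 (Kmt5c) sites, while their spans were 22.4, 50.9 and 7.42 kb. Kmt5c thus had 18.1 sites per kb of span, the highest density among the members. A Kmt5a site at 124461258 on chromosome 5, called in 1 KO replicate, was unconverted in 20 of 20 reads used (interval 0.839 to 1). It had 25 covering reads.

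The polycomb repressive complex that methylates histone H3 to silence genes was unevenly represented. Suz12, a structural subunit on the plus strand, had 128 sites with a median level of 0.455, the lowest gene median among plus-strand writers. Its site at 80019760 on chromosome 11 was covered by 87 reads and had an authors' mean level of 0.452 with a deposited spread of 0.027. The minus-strand subunit genes Eed and Ezh1 had 1 site each, with levels of 0.2 and 0.25. Ezh2, the main catalytic subunit, also on the minus strand, had 0 listed sites. Setd6, which methylates a subunit of NF-kappaB among other targets, had 52 sites, 0 of them in the last decile of its span.

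Arginine methyltransferase genes had fewer sites. The plus-strand genes Prmt9, Prmt3 and Prmt7 had 106, 96 and 76, with median levels of 0.5, 0.6 and 0.51. Prmt5, which places symmetric dimethylarginine, and Prmt1, the main asymmetric enzyme, are minus-strand genes with 2 sites each. The Prmt1 site at 44978230 on chromosome 7 had 111 covering reads, of which 17 entered the level and 6 were unconverted (0.353, interval 0.173 to 0.587). Prmt6 had 1 site, and Prmt2 and Prmt8 had 0.

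Among acetyltransferase genes, Kat6a, which encodes MOZ, had 246 sites and Ep300, which encodes p300, had 242, both with a median level of 0.5. A Kat6a site at 22932489 on chromosome 8, called in 1 KO replicate, was unconverted in 20 of 20 reads (interval 0.839 to 1). The Kat6a site with the most reads used, at 22938596, kept 20 of 38 (0.526, interval 0.373 to 0.675). The Ep300 site with the most reads used, at 81628629 on chromosome 15, kept 25 of 55 (0.455, interval 0.330 to 0.585). Kat6b, a paralog of Kat6a, had 117 sites, Kat2b had 93 and Kat8 had 86. Msl1, a scaffold of the complex in which Kat8 acetylates histone H4, had 140 sites. At 98806758 on chromosome 11 it had an authors' mean level of 0.94 in both replicates, with a deposited spread of 0.022 and 60 covering reads. Another Msl1 site, at 98803954, kept 16 of 61 reads (0.262, interval 0.168 to 0.384), so levels differed widely within the gene. Kat14, on the plus strand, and Kat5, on the minus strand, had 0 sites.

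Demethylase genes made up most of the eraser sites. All 4 members of the Kdm5 family, which remove methyl groups from a promoter-associated lysine of histone H3, are plus-strand genes. Kdm5a had 300 sites, Kdm5c on the X chromosome 242, Kdm5b 182 and Kdm5d on the Y chromosome 165, with median levels of 0.462, 0.578, 0.5 and 0.491. No source used here says how reads that match both Kdm5c and Kdm5d were placed. The Kdm5c site with the most reads used, at 152248773, kept 41 of 79 (0.519, interval 0.411 to 0.626). The corresponding Kdm5a site, at 120432076 on chromosome 6, kept 29 of 53 (0.547, interval 0.415 to 0.673). That of Kdm5b, at 134597611 on chromosome 1, kept 11 of 55 (0.2, interval 0.116 to 0.324), the lowest level the table holds.

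Kdm3b, a demethylase gene of the deleted region in human myeloid disease, had 289 sites on chromosome 18 at a median level of 0.508. Its site at 34813515 kept 37 of 39 reads (0.949, interval 0.831 to 0.986). At 34803751, covered by 88 reads, the authors' mean level over both replicates was 0.524 with a deposited spread of 0.011. Kdm4b and Kdm4c, which act on repressive methyl marks, had 207 and 109 sites with medians of 0.562 and 0.45. A Kdm4b site at 56393851 on chromosome 17 kept 26 of 27 reads (0.963, interval 0.817 to 0.993). Kdm6a, which opposes polycomb, had 103 sites, Kdm1b had 102 and Kdm8 had 78. In Kdm6a 26 sites (25.2%) were called in both replicates, the highest share of any member with 5 or more sites.

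Deacetylase genes were listed less fully than demethylase genes, of which 16 of 18 had a site. Of 11 Hdac genes 4 had a site (36.4%) and of 7 sirtuin genes 3 (42.9%), against 34.2% of all protein-coding genes. The families differ in strand. On the plus strand 10 of 10 demethylase, 1 of 2 Hdac and 2 of 2 sirtuin genes had a site. On the minus strand 6 of 8, 3 of 6 and 1 of 5 had one. The part of strand in the difference between families was not tested. Hdac2, a core deacetylase of several corepressor complexes, is the only plus-strand Hdac gene listed. Its 58 sites had a median level of 0.44, the lowest gene median among plus-strand members. Its best covered site in both replicates, at 36998528 on chromosome 10, had 84 reads and an authors' mean level of 0.459 with a deposited spread of 0.034. Hdac5 had 2 sites, and Hdac4 and Hdac7 had 1 each. The plus-strand gene Hdac11 and the minus-strand genes Hdac6, Hdac8 and Hdac9 had 0. So had Hdac1, Hdac3 and Hdac10, whose strand was not taken from the tables used here. Sirt2, a mainly cytoplasmic deacetylase, had 106 sites with a median of 0.494. Its site at 28782855 on chromosome 7 had 124 covering reads and an authors' mean level of 0.223, with a deposited spread of 0.012. Sirt5, a mitochondrial desuccinylase, had 41 sites with a median of 0.6, 0 of them called in both replicates. Its site at 43383187 on chromosome 13 kept 29 of 31 reads (0.935, interval 0.793 to 0.982). Sirt1, Sirt3, Sirt6 and Sirt7, all on the minus strand, had 0.

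The minus-strand members had low levels as well as few sites, as did minus-strand genes in general. Over the 76 member sites the level ran from 0.2 to 0.5 with a median of 0.214; 33 sites stood at the lowest listed level, 29 rested on 2 unconverted reads, and 3 (3.95%) were called in both replicates. Over all minus-strand sites in protein-coding genes the median level was 0.231, the median coverage 29 reads and the share in both replicates 10.4%. That share rests largely on pancreatic hormone genes: of its 430 sites in both replicates, 142 were in Gcg and 123 in Ins2. The share without these genes was not computed. Coverage of the minus-strand member sites was not lower than on the plus strand, with a median of 27 reads and a maximum of 111, against 18 reads at plus-strand member sites. The reads that entered the level were no more, with a median of 12 at sites called in 1 replicate on either strand. Kdm6b, which removes the polycomb mark in activated macrophages, had 10 sites, 7 of them in the last decile of the span. Its highest, at 69399765 on chromosome 11, kept 7 of 14 reads (0.5, interval 0.268 to 0.732). The one Kdm6b site in both replicates, at 69399414, had an authors' mean level of 0.281 with a deposited spread of 0.031. Kmt2d, an enhancer methyltransferase gene, had 8 sites with levels from 0.2 to 0.273.

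Kdm1a, which encodes LSD1, a flavin-dependent demethylase and a drug target in acute myeloid leukemia, had 8 sites, all within 477 bases of its 5′ end on chromosome 4. Between 136602310 and 136602320 stood 5 of them, with levels of 0.25, 0.222, 0.389, 0.25 and 0.25. The highest kept 7 of 18 reads (interval 0.203 to 0.614). Kdm4a had 6 sites, 5 of them in the last decile. Crebbp and Kat7 had 4 each. The Crebbp levels were 0.2, 0.2, 0.273 and 0.2 and those of Kat7 0.2, 0.2, 0.211 and 0.231. Kdm2a also had 4, and Setd7 and Kmt2b had 3 each. Kmt2a, Kmt2c, Kat2a, Kdm2b and Sirt4 had 2 each, and Kmt2a, the gene rearranged in mixed-lineage leukemia, had levels of 0.2 and 0.273. Ehmt1, Setd3, Suv39h1, Suv39h2 and Kdm3a had 1 each, with levels from 0.2 to 0.273. The genes Setd4, Kdm4d and Kdm7a had 0.

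Close relatives on opposite strands show the split most directly. Ep300 had 242 sites on the plus strand and its partner Crebbp, with nearly the same protein function, 4 on the minus strand. Kdm6a and Kdm6b had 103 and 10, Ehmt2 and Ehmt1 218 and 1, and Kat2b and Kat2a 93 and 2. Kat6a and Kat6b, both on the plus strand, had 246 and 117.

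**Figure D2:**
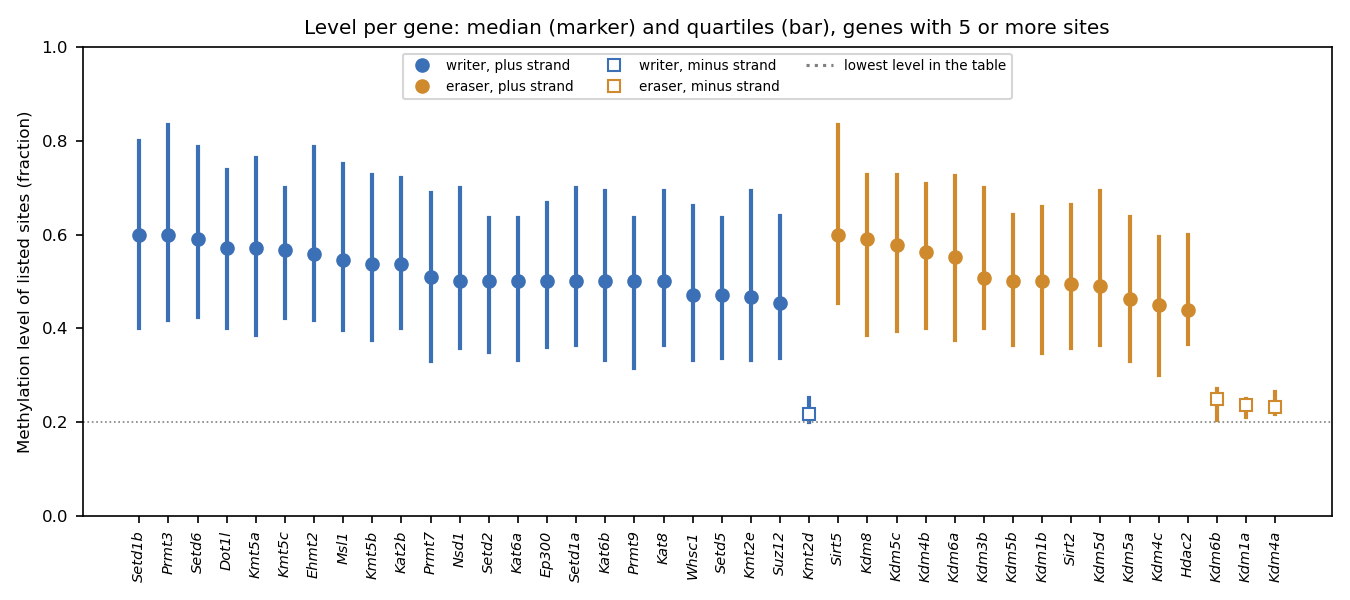
Methylation level of listed sites in each member gene with 5 or more sites, writers on the left and erasers on the right; markers give the median, bars the quartiles, and open squares minus-strand genes. Medians of plus-strand genes lie between 0.44 and 0.6 in both classes, and those of the 4 minus-strand genes between 0.218 and 0.25.

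Writers and erasers were compared within plus-strand genes, which hold nearly all of the sites. Writers numbered 23 plus-strand genes with 52 to 444 sites and a median of 140, and erasers 13 with 41 to 300 and a median of 109, against a median of 71 over all plus-strand protein-coding genes with a site. Per kb of gene span the medians were 3.96 sites in writers and 2.66 in erasers, with ranges from 0.675 to 18.1 and from 0.667 to 5.27, against 2.98 over all genes. The range of the erasers lies almost wholly within that of the writers. Spans include introns, and densities per exon length were not computed.

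The median level was the same in both classes. It was 0.5 over 4418 writer sites and 0.5 over 1982 eraser sites, with upper quartiles of 0.7 and 0.691, against a median of 0.529 over all plus-strand sites in protein-coding genes. Gene medians ran from 0.455 to 0.6 in writers and from 0.44 to 0.6 in erasers. A level of 1 was listed for 3.37% of writer sites and 3.08% of eraser sites, against 3.93% of all. Coverage was the same in the middle, with a median of 18 reads in both classes and quartiles of 14 and 25. At sites called in 1 replicate a median of 12 reads entered the level in either class, so a single level has a wide interval.

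The share of sites called in both KO replicates was 15.3% in writers (exact 95% interval 14.3 to 16.4) and 13.8% in erasers (12.3 to 15.4), against 14.4% over plus-strand sites in protein-coding genes. The intervals cover counting error only and treat sites as independent, which those of 1 gene are not. Gene shares ran from 6.72% (Kmt5c) to 21.5% (Setd1a and Kat2b) in writers and from 0 (Sirt5) to 25.2% (Kdm6a) in erasers, so genes of a class differed more than the classes did. The share was lowest at the lowest coverage in both classes: it was 8.71% of writer sites and 8.83% of eraser sites with 10 to 14 covering reads, and 19.9% and 17.9% with 30 or more. The median level was lower where coverage was higher, at 0.545 in both classes with 10 to 14 reads, and at 0.462 in writers and 0.48 in erasers with 30 or more. The widest gap between the classes was at 15 to 19 reads, with 17.1% of writer sites (exact interval 15 to 19.3) and 12.8% of eraser sites (10 to 16) in both replicates. Where both replicates had a call, the median spread in the authors' deposited table was 0.047 in writers and 0.05 in erasers.

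**Figure D3:**
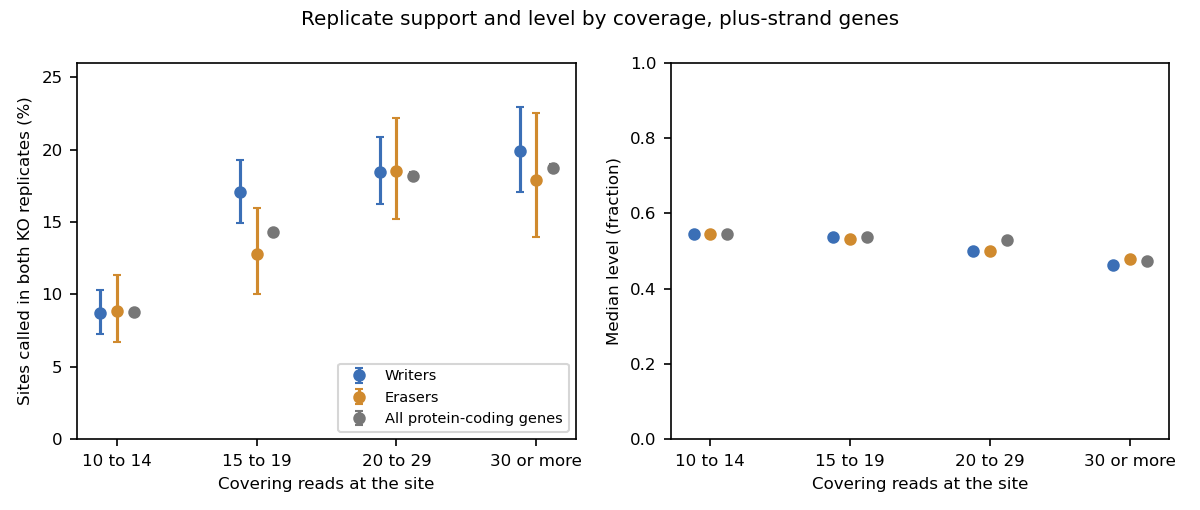
Share of plus-strand sites called in both KO replicates (left, with exact 95% intervals for counting error) and median level (right), by the number of covering reads, for writers, erasers and all protein-coding genes. The share is lowest and the level highest at 10 to 14 covering reads, in writers, in erasers and in all genes.

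By position, writer sites lay in the last decile of the gene span more often than eraser sites. That decile held 29.7% of plus-strand writer sites (28.4 to 31.1) and 23.1% of plus-strand eraser sites (21.3 to 25), against 29% of sites in all protein-coding genes. In the ninth decile the order was turned, with 11% of writer sites and 21% of eraser sites, against 14.1% in all genes. Without Nsd1 and Kdm5a, the gene with the most sites in each class, the last decile over both strands held 28.1% of writer sites and 24.1% of eraser sites, a difference of 3.92 points in place of 6.13. Of the eraser sites in the ninth decile, 87 were from Kdm5c, 81 from Kdm4b, 72 from Kdm5a and 58 from Kdm3b. The last decile held 80.3% of Kat6b sites, 54.9% of Kat6a sites and 44.6% of Nsd1 sites, but 8.72% of Ehmt2 sites, 9.87% of Setd1a sites and 0% of Setd6 sites. In plus-strand erasers it held from 5.88% (Kdm1b) to 38.6% (Kdm4b). Taking each gene once, over strands and genes with 5 or more sites, the median share was 25.3% in writers and 22.1% in erasers, within the spread among genes.

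**Figure D4:**
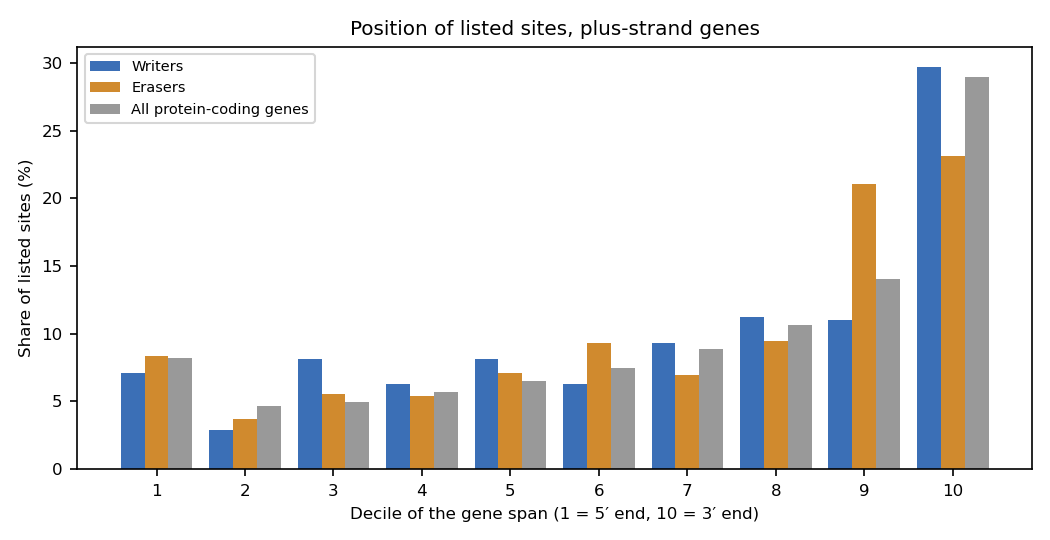
Share of listed sites in each decile of the gene span, from the 5′ end (1) to the 3′ end (10), for plus-strand writers, erasers and all protein-coding genes. The last decile holds 29.7% of writer sites and 23.1% of eraser sites, and the ninth 11% and 21%.

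By family, the last-decile share among writers was highest in acetyltransferase genes, with 44.5% of 924 plus-strand sites. The exact interval of 41.2 to 47.8 treats the sites of a gene as independent. Lysine methyltransferase genes had 25.6% of 3216 sites there and arginine methyltransferase genes 28.4% of 278, against 29% in all protein-coding genes. The acetyltransferase genes differed widely among themselves. The share was high in Kat6b (80.3%), Kat6a (54.9%) and Ep300 (43.8%). It was 29% in Kat2b, 22.9% in Msl1 and 19.8% in Kat8, so the family value does not hold for each gene. Among erasers the last decile held 23.7% of 1777 sites in demethylase genes, 27.6% of 58 in Hdac2 and 14.3% of 147 in sirtuin genes. Sirt2 stood out by its 5′ sites, with 33.0% in the second and 26.4% in the third decile. Kdm6a and Prmt3 had 35.9% and 32.3% of their sites in the first decile, and Setd2 had 37.8% in the third. Listed sites crowded together in both classes: another site on the same strand lay within 10 nt of 73.5% of plus-strand writer sites and of 70.3% of plus-strand eraser sites, against 70.5% of plus-strand sites and 70.1% of all sites in protein-coding genes. On the minus strand this held for 4 of 39 writer sites and 17 of 37 eraser sites, of which 7 were in Kdm1a.

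Partner subunits of the same complexes showed the same strand split. The counts by strand below stand against 56.4% of plus-strand and 22% of minus-strand protein-coding genes of known strand with a site. Deacetylase complex genes had sites in 18 of 18 plus-strand members, with a median of 129, and in 5 of 8 minus-strand members, with at most 7. They include Chd4, the remodeller of the NuRD complex, with 268 sites, Sin3a with 177 and the corepressor gene Ncor1 with 0. Acetyltransferase complex genes had sites in 17 of 17 plus-strand members and 12 of 18 minus-strand members, led by the scaffold gene Trrap. COMPASS subunit genes had them in 6 of 6 and 4 of 5, led by Wdr5 with 256 and counting the member Kdm6a, and polycomb partner genes in 5 of 5 and 1 of 2, led by Jarid2 with 199. Writers outside the name patterns, such as Ncoa3 with 348 sites and Ash1l with 163, were listed for 6 of 6 plus-strand and 2 of 7 minus-strand genes. Of erasers outside them 5 of 7 were listed, with 3 of 3 on the plus and 2 of 3 on the minus strand, led by Phf8 with 140. The marker counts that follow join both strands and genes of unknown strand, beside 34.2% of all protein-coding genes with a site. Myeloid marker genes had a site in 7 of 9 cases (6 of 6 plus-strand and 1 of 3 minus-strand), Mpo among them with 217. T and NK cell markers had one in 1 of 5 and B cell markers in 0 of 4, while all 6 pancreatic hormone genes had sites. Gcg and Ins2, both on the minus strand, had 228 and 139, more than any minus-strand member. The part of RNA from other cells in the member values was not tested.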

How the data were processed

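Poly(A) RNA of 2 Tet2 KO and 2 WT libraries was bisulfite-converted and sequenced; library totals were not used here. The submitters' processing notes name mm10 as the build; no source used here names the aligner or caller. In the deposited table, covering and unconverted reads are not normalized and are a score where 2 replicates made the call, the authors' mean rounded to a whole number. The deposited level is a fraction, averaged by the authors over the replicates with a call, and the deposited SD is printed as the spread. Each site's combined p-value is from the authors, at most 0.000114 for the methylation state in the authors' deposited table.

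Reads used were the unconverted reads divided by the level, rounded to a whole number. At 100% of 5521 member sites called in 1 replicate they gave back the level within 0.0006. Wilson intervals for levels and Clopper-Pearson (exact) intervals for shares are at 95% and cover counting error only. Position is the decile of the RefSeq gene span. Sequences are RefSeq windows (GRCm38.p6) from 250 bases before to 50 after a start; 52 of the 63 genes had one. All 63 labels matched a RefSeq gene, 1 of them by an older symbol; 5 pseudogenes with matching names were left out of the annotated genes. The rule for named genes takes each member with a site, and single sites of the 5 writers and 5 erasers with most sites, the sites of highest level and coverage, minus-strand genes with 2 or more sites, and Ezh2, Dot1l, Kmt2a, Ep300, Crebbp, Kat6a, Kdm1a, Kdm6b, Hdac3 and Msl1. No test was run, since the table has no sample values; lists were described by counts. Members and lists were chosen with earlier results of these data known. On simulated sites in 81 genes the reads used were recovered in 100% of cases. That checks the code only, since the simulated levels were made by the same division. Python 3.11.15, pandas 2.3.3 and SciPy 1.17.1 were used. Alternatives were other coverage limits, replicate support, runs, gene labels, strand, p and class membership.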

Additional observations from a re-analysis of the deposited data

How the results depend on the processing

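No paired analysis was possible because the table joins the KO replicates and has no WT values; for the same reason no replicate could be left out. Numbers of genes and of sites per gene stayed if they were within 1.5 times the main value. Shares and class medians stayed if they lay within the counting interval, in both classes where these were compared. A difference between classes also had to keep its sign, with 0 as a sign of its own. Of 72 values recomputed under an alternative, 34 stayed and 38 moved. The cause was not tested. The alternative of 1 gene label only could not move any value, since 0 member sites carried a further label, and its values are counted among those that stayed. The settings in the order used below are 20 or more covering reads, 30 or more covering reads, 20 or more reads used, both KO replicates, and no other site within 10 nt. Sites per plus-strand member gene fell to 55, 25.5, 27, 22 and 42. Member genes with a site numbered 39 with 20 or more reads used, 38 with both replicates and 36 on the plus strand. The plus-strand share was 98.1%, 96.9%, 99.6%, 99.7% and 97.0%, and 99.7% at a p for the state of at most 1e-06. The median level of writers minus that of erasers was 0.015, -0.008, -0.01, 0.0035 and 0.011, 0 at the stricter p, where both medians were 0.545, and 0.003 with each gene counted once. The median coverage differed by 0, 0, 2, -1 and -2 reads, and by 1 read with each gene once. The share in both replicates, writers minus erasers, was 0.811 points with 20 and 1.82 points with 30 covering reads, 1.51 outside runs, 1.44 at the stricter p and 2.38 with each gene once, against 1.56 in the main setting. The share in the last decile differed by 6.13 points over all sites and by 9.72, 9.74, 6.13, 10.4 and 3.98 points in the order above, by 3.92 without Nsd1 and Kdm5a and by 3.18 with each gene once. It was higher in writers in each of the 11 alternatives, among them the 1 gene label setting, which could not differ. Depth limits each site, since a median of 12 reads entered a level; intervals cover counting error only.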

Other observations

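Some member genes held very dense stretches of listed sites, chosen here after their values were seen. In Kat6a 24 sites lay within 100 nt from position 22938501 on chromosome 8, and in Kdm3b 24 within 100 nt from 34809376 on chromosome 18. Ehmt2 had 23 from 34905168 on chromosome 17, including 6 adjacent positions in a row. Kdm6a had 20 from 18162996 on the X chromosome, near its 5′ end.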
